A study of Mus musculus with 12 samples.

Results

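The genes described here are 32 that make, take up, move, store or export cholesterol, read in mouse fat cell lines before and after differentiation. They were chosen by gene symbol, as 7 genes of the mevalonate arm, 12 of the squalene and sterol arm, 5 of SREBP control, 4 of uptake control and transport and 4 of export and esterification. A probe set with 1 gene symbol in the platform annotation stood for 30 of the 32, and all 30 passed the filter on dim signals, among 13752 genes tested of 18193 named. Acat2, the cytosolic thiolase at the head of the mevalonate arm, and Soat1, which esterifies cholesterol, are not analysed here.

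The 4 groups of 3 arrays each, 12 in all, were read as total RNA on Affymetrix 3' arrays. The 3T3-L1 cells are established mouse preadipocytes of the white type, and the cells of the second line were labelled brown. The comparisons ask how expression changes as each line becomes fat cells and where the lines differ. White preadipocytes and brown preadipocytes were both taken at day 0, which was 2 days after confluence, without induction. White adipocytes were harvested at day 10 after an induction of 3 days with insulin at 1 µg/mL, IBMX at 0.5 mM and the glucocorticoid dexamethasone at 1 µM. Brown adipocytes were harvested at day 8 after an induction of 3 days with the same IBMX and dexamethasone, but with insulin at 20 nM, the thyroid hormone T3 at 1 nM and indomethacin at 125 µM, and they stayed in insulin and T3 to the end. The white line kept insulin for 2 more days after induction and was then held in plain growth medium. Growth medium held 10% serum, from fetal calves for 3T3-L1 and fetal bovine for the brown line, and serum carries cholesterol in lipoproteins. Line, induction mix, later medium and day of harvest differed together and cannot be told apart in a difference between the lines. Each group comes from 1 cell line, and the labels do not say whether its 3 arrays came from separate cultures, so p-values measure only the spread between these arrays.

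Cells build cholesterol from acetyl-CoA through mevalonate, isoprenoids, squalene and lanosterol. When membranes of the endoplasmic reticulum hold little sterol, Scap carries SREBP transcription factors to the Golgi for activation, and when sterol is plentiful the Insig proteins hold Scap back, so most genes of this pathway are known to rise and fall together. A surplus of oxysterols activates LXR receptors, which are known to induce the exporters Abca1 and Abcg1 and the ubiquitin ligase Mylip, which marks lipoprotein receptors for breakdown. Fat cells store much of the body's free cholesterol in membranes and at lipid droplets.

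Promoters of the genes were read from RefSeq on the GRCm38.p6 assembly, in windows from 250 bases before to 50 after each annotated start. A gene with several windows was counted when any of them held the motif searched. A window was at hand for 24 of the 30 genes, 15 of them among the 18 tested synthesis genes, that is, the mevalonate and the squalene and sterol arms together. The CCAAT box, bound by NF-Y, which works beside SREBPs on many sterol genes, was searched as CCAAT on both strands. It was found in 15 of the 15 synthesis genes and 22 of the 24, against 42.4% of the 11031 tested genes with a window and 37.4% of all 32851 windows. The core of the sterol regulatory element, searched as TCACNCCAC on both strands, was found in Hmgcs1 alone, and in 166 of the 11031 tested genes and 408 of all windows. The GC box, searched as GGGCGG on both strands, was in 14 of 15 synthesis genes against 65.6% of tested genes and 35.7% of all windows. A direct repeat of AGGTCA spaced by 4 bases, the consensus bound by LXR, was in 0 of the 24 and in 5 of all windows. The CCAAT and sterol element matches of Hmgcs1 do not overlap, and all of these matches are letters in a window, not sites shown to be bound.

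The 160 bases before the start of 4 genes are shown, 1 for its sterol element and 3 because they mark extremes of the expression results. Hmgcs1 (chr13:119690191-119690350, plus strand) holds the sterol element match, which ends 128 bases before the start. Mvd (chr8:122443423-122443582, minus strand) had the largest fall of the synthesis genes in brown cells, and Tm7sf2 (chr19:6067851-6068010, minus strand) the largest difference between the lines. Lbr (chr1:181842402-181842561, minus strand) alone of the 30 genes had a positive line difference that passed. Sequences run 5′ to 3′ on the gene's strand, and capitals mark CCAAT boxes (ATTGG on the other strand) and the sterol element.
Hmgcs1: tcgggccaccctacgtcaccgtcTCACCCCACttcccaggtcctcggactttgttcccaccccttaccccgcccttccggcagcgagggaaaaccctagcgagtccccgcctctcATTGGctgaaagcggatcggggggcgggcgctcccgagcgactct
Mvd: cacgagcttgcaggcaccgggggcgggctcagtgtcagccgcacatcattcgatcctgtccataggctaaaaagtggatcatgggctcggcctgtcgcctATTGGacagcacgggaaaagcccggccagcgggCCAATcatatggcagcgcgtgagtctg
Tm7sf2: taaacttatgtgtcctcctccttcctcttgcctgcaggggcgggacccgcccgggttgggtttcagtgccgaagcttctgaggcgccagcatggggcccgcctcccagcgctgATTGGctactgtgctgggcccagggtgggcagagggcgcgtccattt
Lbr: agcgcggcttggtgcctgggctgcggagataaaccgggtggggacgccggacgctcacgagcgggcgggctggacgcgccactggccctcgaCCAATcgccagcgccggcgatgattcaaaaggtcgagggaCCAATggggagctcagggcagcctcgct
Both Tm7sf2, with 1 CCAAT box in these bases, and Lbr, with 2, carry the box. All 15 synthesis genes with a window do, so its presence could not separate these synthesis genes, and no conclusion is drawn from it.

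Libraries of a group resembled each other, with Pearson correlations of log2 signal of 0.978 to 0.982 within groups and 0.885 to 0.935 between groups. Markers set the state of each group. Of 5 fat cell markers, 4 were low in white preadipocytes, with means of 12.7 to 58.4, among them the adipokine gene Adipoq at 31.9 ± 16.4, while Fabp4, the fatty acid binding protein, already read 8050 ± 433. Adipoq reached 32117 ± 2551 in white adipocytes. Of the fat cell markers, Adipoq and Fabp4 went against the label of the brown preadipocytes. Adipoq read 18695 ± 2319 there at day 0, against 26332 ± 497 in brown adipocytes, and Fabp4 27420.5 ± 2567 against 39870 ± 1233. Cidec, Slc2a4 and Lipe were far lower at day 0, at 349 ± 46.0, 402 ± 128 and 494 ± 65.3. In brown adipocytes they read 3922 ± 115, 2923 ± 122 and 3843 ± 211. All 5 exceeded white preadipocytes, so the brown comparison starts from cells that already expressed some fat cell genes. The 5 fat cell markers summed to 7892 to 8676, 99923 to 113005, 42236 to 50691 and 75758 to 78680 per array in white preadipocytes, white adipocytes, brown preadipocytes and brown adipocytes. The preadipocyte marker Dlk1 read 6452 ± 809 and 779 ± 67.7 in white and 981 ± 28.6 and 31.8 ± 0.309 in brown preadipocytes and adipocytes. The other preadipocyte markers tested differed from it: Pdgfra read 2595 ± 138 and 2970 ± 269 in white and 5514 ± 349 and 131 ± 15.3 in brown cells, and Cd34 15.9 ± 10.2 and 20.9 ± 3.30 in white and 110.0 ± 18.1 and 21.6 ± 11.2 in brown cells. Ucp1, the uncoupling protein of brown fat, read 382 ± 74.5 in brown adipocytes and stayed below the filter level in the other groups. The other brown fat markers were brighter and less alike. Cidea read 63.3 ± 32.3 in white and 6754 ± 337 in brown adipocytes, and Cox7a1 1506 ± 60.5 and 14769.7 ± 582. Cox8b did not separate the lines in this way, at 5065 ± 649 in white and 3685 ± 594 in brown adipocytes. Proliferation markers (3 of 4 tested) summed to 17905 to 18644 per array in white preadipocytes and 1093 to 1200 in white adipocytes, but to 24113 to 27677 in brown preadipocytes and 18656 to 19570 in brown adipocytes. The 3'/5' ratio of beta-actin, a sign of RNA quality, was 1.40 ± 0.0554 and 1.49 ± 0.0626 in white and brown preadipocytes and 2.25 ± 0.151 and 2.42 ± 0.0478 in white and brown adipocytes (SD, n = 3), so it was higher after differentiation in both lines. The Gapdh ratio did not follow it, at 0.861 ± 0.0342 and 0.828 ± 0.00689 in white and 0.775 ± 0.0296 and 0.814 ± 0.0189 in brown preadipocytes and adipocytes. The part of proliferation and of RNA quality in the results was not tested. All 7 macrophage markers, of which 4 were tested, summed to 1057 to 1200, 743 to 795, 279 to 352 and 291 to 321 per array in white preadipocytes, white adipocytes, brown preadipocytes and brown adipocytes. Lyz2, the lysozyme of myeloid cells, made up most of the difference between the lines, at 870 ± 95.8, 492 ± 41.6, 46.5 ± 4.48 and 15.0 ± 10.7. Ptprc, Itgam and Tyrobp were too dim to test, as were all 4 endothelial markers, and the 2 hepatocyte markers tested did not pass in any comparison.

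Cholesterol synthesis genes mostly fell in brown cells, while in white cells more of them rose than fell. In white cells 9 of 18 synthesis genes rose and 3 fell, against 30.1% and 31.2% of all tested genes. In brown cells 15 fell and 2 rose, against 31.6% and 27.2%. The median change of the 18 was 0.31 in white and −0.96 in brown cells on the scale of log2(signal + 16), against medians of 0.02 and −0.03 over all genes tested. With arrays scaled to the hybridization controls, 7 rose and 5 fell in white cells and 15 fell and 0 rose in brown cells, with medians of 0.035 and −1.18 against −0.23 and −0.22 over all genes. More synthesis genes rose than fell in white cells under each of the 4 scalings tried, with medians of 0.035 to 0.31. In bulk RNA, fewer cells expressing a gene and less of its RNA per cell cannot be told apart.

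Over the 30 genes, 17 rose and 7 fell in white cells, where 30.1% of all tested genes rose and 31.2% fell. In brown cells 8 rose and 21 fell, where 27.2% of all tested genes rose and 31.6% fell. The change in brown cells lay below that in white cells for 23 genes and above it for 1, against 27.5% and 23.6% of all tested genes. Brown adipocytes lay below white adipocytes for 24 genes and above for 5, against 29.5% and 30.1% of all genes. At day 0 brown preadipocytes lay above white ones for 10 genes and below for 9, where 31.3% and 23.8% of all genes did. The day 0 shares are close to those of all genes, while the adipocyte comparison leans to lower values in brown cells. All calls are at an adjusted p under 0.05 from limma. Scaling to the hybridization controls changed the white counts to 14 up and 9 down (over all genes 2949 and 5645, against 4141 and 4286 as deposited), and equal medians changed the day 0 counts to 7 above and 14 below (over all genes 2729 and 4953, against 4307 and 3274).

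A rise in white cells together with a fall in brown cells was seen for 9 of the 30 genes, against 4.90% of all tested genes. These were Hmgcs1, Lss, Cyp51, Tm7sf2, Hsd17b7, Sc5d and Dhcr7 of synthesis, and Mylip and Npc2. Not all of these calls held with other processing or an array left out. The white call was then lost for Hmgcs1, Hsd17b7 and Sc5d and reversed for Lss, and the brown call was lost for Dhcr7 and Npc2. Tm7sf2, Mylip and Cyp51 kept both calls, though another bright Cyp51 probe set read only 0.04 in white cells. Another 8 rose in both lines, among them Srebf1, Insig1, Abca1 and Abcg1, and 6 fell in both, among them Srebf2, Stard4 and Nceh1, where 2305 and 2475 of the 13752 tested genes did (16.8% rose in both). Mvd, Fdps, Fdft1, Sqle, Msmo1 and Nsdhl fell in brown cells and did not pass the test in white cells. Lbr alone fell in white cells and did not pass in brown cells. The white and brown changes use different arrays, while both share their arrays with the line difference, which is a test of that difference and no further evidence for either.

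**Figure D1:**
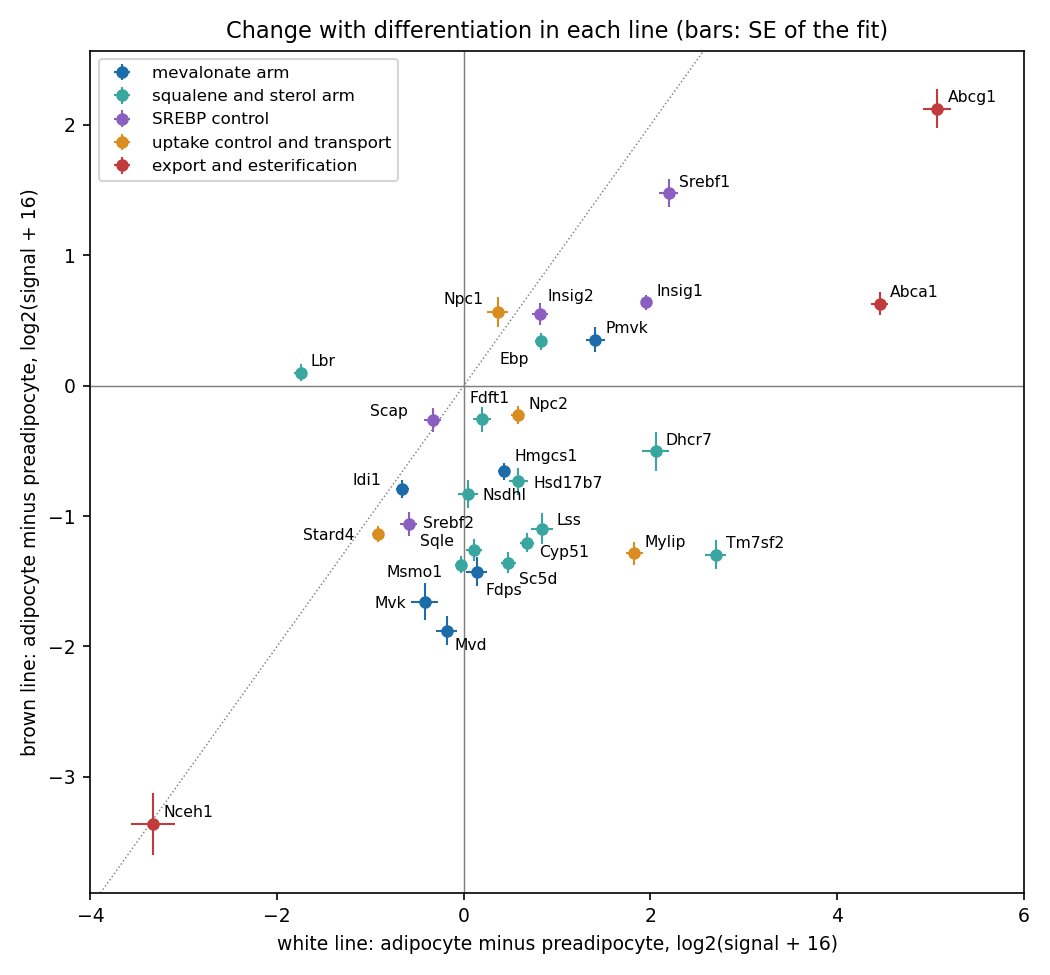
Change of each of the 30 genes with differentiation, in log2(signal + 16), in the white line (x axis) and the brown line (y axis). Points are differences of group means with SE from the fit, coloured by role, and the dotted line marks equal change. Most synthesis genes (blue and teal) lie below the dotted line and below 0 on the y axis, while Abca1 and Abcg1 lie far to the right and Nceh1 far down on the line.

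**Figure D2:**
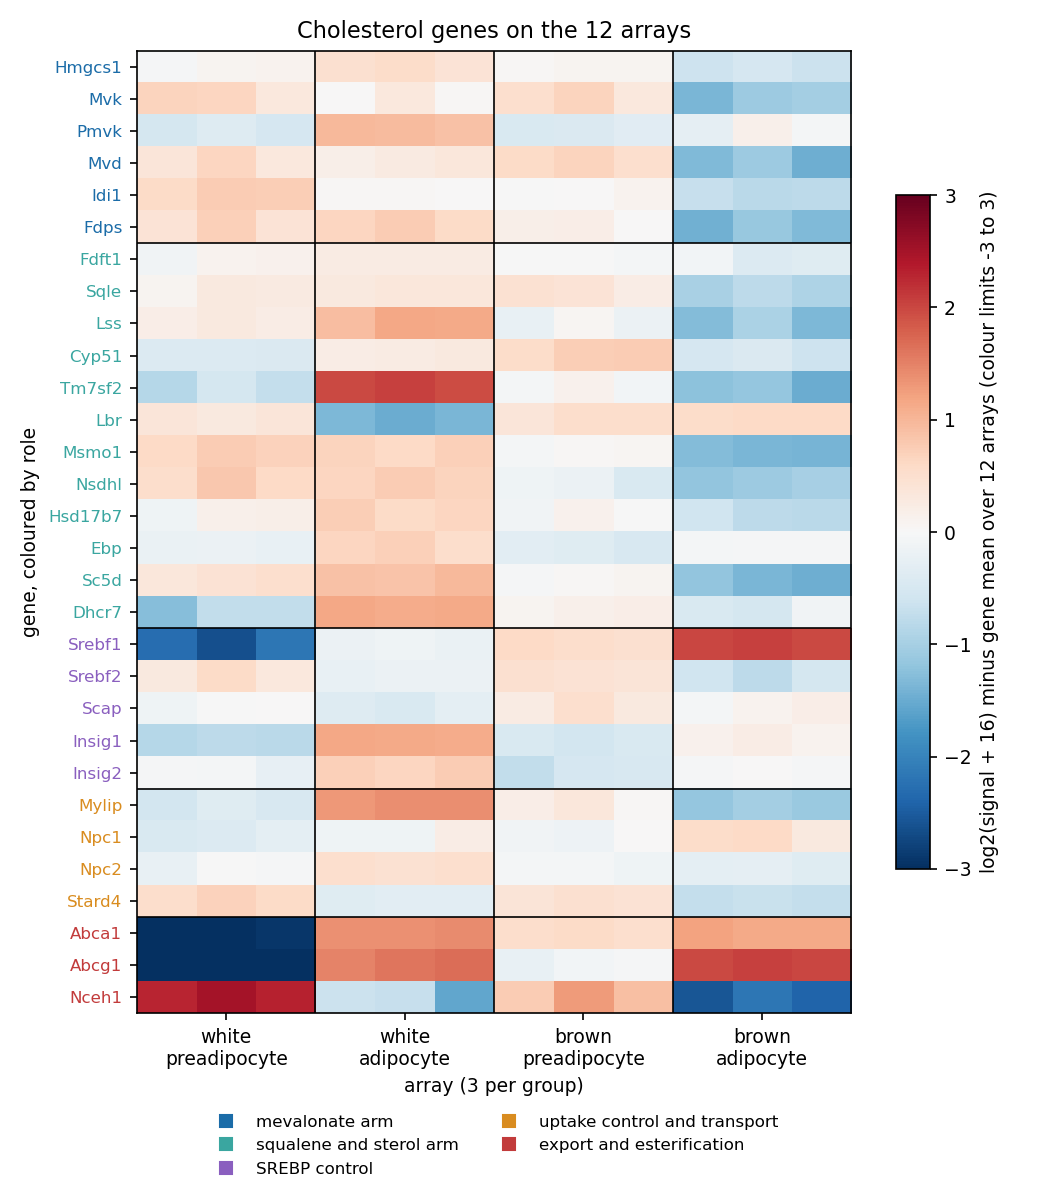
Level of each gene on each of the 12 arrays, as log2(signal + 16) minus the gene's mean over the 12 arrays, with rows grouped and coloured by role. Colours stop at −3 and 3, a limit that Abca1 and Abcg1 pass in white preadipocytes. Most synthesis genes are lowest in the 3 brown adipocyte arrays, while Lbr is lowest in the 3 white adipocyte arrays.

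The mevalonate arm fell in brown cells for 5 of its 6 tested genes, against 31.6% of all tested genes. In white cells 2 rose, 2 fell and 2 did not pass, near the shares of all tested genes (30.1% and 31.2%). Hmgcs1, which makes HMG-CoA from acetyl-CoA units, read 12828, 13972 and 14093 in white preadipocytes, 18434, 19223 and 17443 in white adipocytes, 13428, 14060.0 and 13916 in brown preadipocytes and 8537, 9298 and 8419.9 in brown adipocytes. White adipocytes were highest, brown adipocytes lowest, and the preadipocytes of the lines overlapped. The rise in white cells was 1.35-fold (log2 0.43, SE 0.0675, adjusted p = 0.000252) and the fall in brown cells 1.58-fold (log2 −0.66, SE 0.0675, adjusted p = 1.33e-05). The white rise is lost with scaling to the hybridization controls (log2 0.15, adjusted p = 0.0572), and a dimmer probe set of the gene read −0.63 there, while the other 3 read 0.36, 0.65 and 0.70.

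Mvd makes isopentenyl diphosphate by decarboxylation of mevalonate diphosphate. It read 735, 885 and 707 in white preadipocytes and 643, 678 and 714 in white adipocytes, which overlapped. It read 853, 907 and 808 in brown preadipocytes and 215, 255 and 195 in brown adipocytes. All brown adipocyte arrays were far below the other 9. The fall in brown cells was 3.86-fold (log2 −1.88, SE 0.111, adjusted p = 2.09e-07), and the white change was −0.18 (SE 0.111, adjusted p = 0.180). Fdps, the farnesyl diphosphate synthase that feeds both sterols and protein prenylation, showed the same split. It read 8305, 10348 and 8351 and 9709.8, 10617 and 9308 in white preadipocytes and adipocytes, which overlapped, and 7076, 7168 and 6260.0 and 2296, 2844 and 2468 in brown ones. The brown fall was 2.70-fold (log2 −1.43, SE 0.113, adjusted p = 1.84e-06).

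The mevalonate kinases parted. Mvk, which adds the first phosphate, fell in brown cells from 598 ± 75.7 to 178 ± 24.4 (SD, n = 3; log2 −1.66, SE 0.142, adjusted p = 3.27e-06). In white cells its values were 615 ± 79.9 and 455 ± 57.0 (log2 −0.42, SE 0.142, adjusted p = 0.0253), a call that was lost without white preadipocyte replicate 1 or 2 or replicate 1 or 3 of the white adipocytes, with adjusted p of 0.0754 to 0.0837. Pmvk, which adds the next phosphate, rose in both lines. It read 1189, 1316 and 1207 in white preadipocytes and 3399, 3356 and 3184 in white adipocytes, a 2.68-fold rise (log2 1.41, SE 0.0982, adjusted p = 5.33e-07). Brown preadipocytes read 1257, 1267 and 1353 and brown adipocytes 1429.9, 1914 and 1656, a smaller rise (log2 0.35, SE 0.0982, adjusted p = 0.0103) that did not pass with scaling to the hybridization controls (adjusted p = 0.226). Idi1, the isomerase of isopentenyl diphosphate, fell in both lines, from 9523 ± 676 to 6021 ± 56.8 in white cells and from 6053 ± 219 to 3485 ± 139 in brown cells. Its line difference was −0.14 (SE 0.0943, adjusted p = 0.261), the only one of the arm that did not pass.

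In the squalene and sterol arm, 10 of 12 genes fell and 1 rose in brown cells, against 31.6% and 27.2% of all tested genes. In white cells 7 rose and 1 fell, against 30.1% and 31.2%. Tm7sf2 and Lbr code for the same enzyme activity, a sterol reductase that acts just after the lanosterol demethylase, and Lbr is also the lamin B receptor, which holds chromatin at the nuclear envelope. Tm7sf2 read 347, 438 and 382 in white preadipocytes, 2560.1, 2721 and 2521 in white adipocytes, 619, 700.5 and 608 in brown preadipocytes and 262, 279.7 and 218 in brown adipocytes. No groups overlapped, and white adipocytes stood far above the rest. It rose 6.69-fold in white cells (log2 2.70, SE 0.109, adjusted p = 9.47e-09) and fell 2.54-fold in brown cells (log2 −1.30, SE 0.109, adjusted p = 2.99e-06). White adipocytes were 10.3-fold above brown adipocytes, and the line difference of −3.99 (SE 0.155, adjusted p = 3.13e-08) was the largest of the 30 genes.

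Lbr fell in white cells, where Tm7sf2 rose, and did not pass in brown cells. It read 4745, 4499 and 4716 in white preadipocytes and 1426, 1295 and 1404 in white adipocytes, a 3.39-fold fall (log2 −1.75, SE 0.0670, adjusted p = 6.34e-09). In brown cells it read 4712, 5297 and 5312 and 5372, 5514 and 5507, a change of 0.10 (SE 0.0670, adjusted p = 0.231). White adipocytes alone were low, and brown adipocytes exceeded them 3.98-fold (log2 1.98, SE 0.0670, adjusted p = 4.14e-09). Of the 30 genes, Lbr alone had a positive line difference that passed, at 1.85 (SE 0.0948, adjusted p = 1.70e-07). The 3 proliferation markers tested also fell in white cells, with Mcm5, part of the replicative helicase, at −4.94, Mki67 at −3.85 and Top2a at −3.32. In brown cells Top2a (−0.80) and Mki67 (−0.56) fell too, by less in the test of the line difference, and Mcm5 read −0.08 (adjusted p = 0.332). Their part in the Lbr result was not tested. Each of these reductases had 1 probe set, so no second reading was at hand.

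Dhcr7, the reductase that completes cholesterol, read 301, 443 and 439 and 1690.4, 1632 and 1677 in white preadipocytes and adipocytes and 793, 838 and 861 and 539, 519 and 698 in brown ones. All 4 groups were apart, and white cells started lowest and ended highest. The white rise was 4.22-fold (log2 2.05, SE 0.149, adjusted p = 7.45e-07). The brown fall was 1.42-fold (log2 −0.50, SE 0.149, adjusted p = 0.0143) and did not pass without brown adipocyte replicate 1 or 2 (adjusted p = 0.0502 and 0.0551). Cyp51, the lanosterol demethylase, also changed places between the lines. It read 2369, 2371 and 2354 and 3685, 3784 and 3898 in white preadipocytes and adipocytes against 4669, 5315 and 5376 and 2221, 2361 and 2053 in brown ones. Brown preadipocytes lay 2.17-fold above white preadipocytes (log2 1.11, SE 0.0739, adjusted p = 7.86e-07) and brown adipocytes 1.71-fold below white adipocytes (log2 −0.77, SE 0.0739, adjusted p = 7.25e-06). Another bright Cyp51 probe set read 0.04 in white and −1.01 in brown cells, where the first read 0.68 and −1.20. It placed brown adipocytes below white ones by only −0.18, and brown preadipocytes above by 0.87. A dimmer probe set read 0.27 in white and −0.96 in brown cells, and −0.77 between adipocytes.

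Sqle and Msmo1 did not pass the test in white cells and fell in brown cells. Sqle, the squalene epoxidase and a point of control of the pathway, read 6011, 6912 and 6897 and 6994, 7141 and 7206 in white preadipocytes and adipocytes and 7869, 7509 and 6593 and 2911, 3266 and 2961 in brown ones. Its white change was 0.11 (SE 0.0863, adjusted p = 0.304) and its brown fall 2.40-fold (log2 −1.26, SE 0.0863, adjusted p = 6.44e-07). Msmo1, a methyl sterol oxidase, had means of 10573 ± 552 and 10358 ± 438 in white cells, which overlapped, and 6641 ± 262 and 2551 ± 98.5 in brown cells, a 2.60-fold fall (log2 −1.37, SE 0.0654, adjusted p = 4.58e-08). Nsdhl, which acts with Msmo1 to strip methyl groups, read 4137 ± 422 and 4249 ± 176 in white cells and fell in brown cells from 2209 ± 278 to 1229.6 ± 80.2 (log2 −0.83, SE 0.106, adjusted p = 6.90e-05). Fdft1, the squalene synthase, went from 6420.3 ± 117 to 5397 ± 700.4 in brown cells (log2 −0.26, SE 0.0956, adjusted p = 0.0404), a call lost under several alternatives (adjusted p of 0.000213 to 0.465). Among these were the fits without any 1 white adipocyte or brown preadipocyte array or brown adipocyte replicate 2 or 3 (0.0529 to 0.141). Another bright Fdft1 probe set read −0.79 in brown and −0.30 in white cells, where the one that stood for the gene read −0.26 and 0.20.

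Lss, Sc5d and Hsd17b7 rose in white cells and fell in brown cells by the probe set that stood for each, but their probe sets disagreed. Lss, which closes squalene epoxide into lanosterol, read 1194, 1279.9 and 1233 and 2014, 2345 and 2335 in white preadipocytes and adipocytes and 892, 1099 and 931 and 413, 531 and 402 in brown ones. White adipocytes were highest and brown adipocytes lowest, with a white change of 0.84 (SE 0.119, adjusted p = 0.000118) and a brown change of −1.10 (SE 0.119, adjusted p = 1.98e-05). Another Lss probe set read −0.32 in white cells and −0.23 in brown ones. With that probe set in its place the line difference was 0.10 (adjusted p = 0.543). Sc5d, a sterol desaturase, changed by 0.48 (SE 0.0804, adjusted p = 0.000407) in white and −1.36 (SE 0.0804, adjusted p = 2.17e-07) in brown cells, where its means were 1884 ± 76.7 and 727 ± 70.3. Its other probe sets read 0.07 and −0.23 in white and 0.18 and −0.70 in brown cells. Hsd17b7, a sterol ketone reductase, changed by 0.59 (SE 0.103, adjusted p = 0.000543) in white and −0.73 (SE 0.103, adjusted p = 0.000130) in brown cells, and its white change came to 0.03 (adjusted p = 0.805) with less specific probe sets left out. Ebp, the sterol isomerase, rose in both lines, from 2081 ± 20.2 to 3705 ± 242 in white cells and from 1841 ± 109 to 2331 ± 21.9 in brown cells, where the call is lost with scaling to the hybridization controls (adjusted p = 0.158). Of 17 genes with several probe sets above the filter level, signs disagreed for 6 in white and 3 in brown cells.

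RNA of the SREBP paralogs changed in opposite directions, and activity of the proteins was not measured. Srebf1, whose proteins drive fatty acid genes above all, rose in both lines and was higher in brown cells throughout. It read 749, 584 and 821 in white preadipocytes, 3283, 3409 and 3242 in white adipocytes, 5609, 5394 and 5177 in brown preadipocytes and 14953, 15559.9 and 14692 in brown adipocytes. No groups overlapped, and brown preadipocytes already exceeded white adipocytes. The rises were 4.61-fold in white (log2 2.19, SE 0.107, adjusted p = 3.48e-08) and 2.79-fold in brown cells (log2 1.48, SE 0.107, adjusted p = 9.24e-07), and brown adipocytes lay 4.55-fold above white adipocytes (log2 2.18, SE 0.107, adjusted p = 5.34e-08). The array does not separate the Srebf1 isoforms here.

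Srebf2, whose protein is the main activator of cholesterol synthesis genes, fell in both lines. It read 1208, 1492 and 1247 and 845, 877 and 872 in white preadipocytes and adipocytes and 1391, 1339 and 1295 and 650.3, 572 and 682 in brown ones. Brown adipocytes were lowest, and the preadipocytes overlapped. The falls were 1.52-fold in white (log2 −0.59, SE 0.0918, adjusted p = 0.000237) and 2.11-fold in brown cells (log2 −1.06, SE 0.0918, adjusted p = 3.53e-06). A second probe set read −0.78 and −0.64 in white and brown cells, but placed brown adipocytes above white ones by 0.66, where the first had −0.44, and the mean of the probe sets gave 0.11 (adjusted p = 0.356).

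Insig1, an SREBP target that holds the Scap complex back, rose most of the control genes in white cells after Srebf1. It read 3607, 3790.2 and 3685 in white preadipocytes and 14559.7, 14421 and 14148 in white adipocytes, a 3.89-fold rise (log2 1.96, SE 0.0564, adjusted p = 9.20e-10). In brown cells it read 4723, 4457 and 4739.5 and 7129, 7572 and 6999, a 1.56-fold rise (log2 0.64, SE 0.0564, adjusted p = 4.22e-06). White adipocytes stood apart from the other groups, and the line difference was −1.32 (SE 0.0798, adjusted p = 5.10e-07). Thus in brown cells Insig1 rose while 15 of the 18 synthesis genes fell. Insig2, its paralog, which is not under the same control by SREBPs, rose from 2151 ± 173 to 3783 ± 145 in white and from 1560.0 ± 149 to 2289 ± 53.8 in brown cells, and the line difference was −0.26 (SE 0.121, adjusted p = 0.101). A dimmer Insig2 probe set read −0.27 in brown cells. Scap, the escort of the SREBPs, had small falls of −0.33 (SE 0.0911, adjusted p = 0.00864) in white and −0.26 (SE 0.0911, adjusted p = 0.0294) in brown cells, which did not pass with the mean of its probe sets (adjusted p = 0.552 and 0.903). The brown call was also lost without brown preadipocyte replicate 2 or brown adipocyte replicate 1 or 2, with adjusted p of 0.0600 to 0.111.

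Mylip, the LXR-induced ligase that marks lipoprotein receptors for breakdown, had the largest line difference after Tm7sf2 and Abca1. It read 1328, 1502 and 1377 in white preadipocytes, 4814, 5107 and 5138 in white adipocytes, 2251, 2483 and 1982 in brown preadipocytes and 868, 958 and 889.9 in brown adipocytes. White adipocytes were highest and brown adipocytes lowest, with no overlap between any groups. The white rise was 3.58-fold (log2 1.83, SE 0.0889, adjusted p = 3.47e-08), the brown fall 2.47-fold (log2 −1.29, SE 0.0889, adjusted p = 6.82e-07) and the line difference −3.12 (SE 0.126, adjusted p = 3.81e-08). Abca1 and Abcg1, known as LXR targets too, rose in both lines, so Mylip parted from them in brown cells.

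Npc1 and Npc2, which together pass cholesterol out of lysosomes, differed. Npc1, the membrane protein, read 373 ± 22.7 and 487 ± 72.1 in white and 462 ± 26.4 and 692 ± 79.5 in brown preadipocytes and adipocytes, with a white change of 0.36 (SE 0.115, adjusted p = 0.0185) and a brown change of 0.56 (SE 0.115, adjusted p = 0.00170). The white call is lost with scaling to the hybridization controls (adjusted p = 0.524), with equal medians (adjusted p = 0.188), and without replicate 1 of the white preadipocytes or 3 of the white adipocytes (0.0595 and 0.0664). Npc2, the soluble partner, read 13193 ± 1091 and 19696 ± 368 in white cells, a change of 0.58 (SE 0.0695, adjusted p = 3.40e-05), and 13239 ± 413 and 11331 ± 355 in brown cells, a change of −0.22 (SE 0.0695, adjusted p = 0.0180) that did not pass with equal medians (adjusted p = 0.0928) or without brown preadipocyte replicate 1 or 2 or brown adipocyte replicate 3 (0.0535 to 0.0629). Other Npc2 probe sets disagreed in brown cells, where a bright one read −0.56 and a dimmer one 0.41. Stard4, a soluble sterol carrier and SREBP target, fell in both lines. It read 2078, 2350.0 and 2154 and 1122, 1167 and 1159.9 in white preadipocytes and adipocytes and 1893, 2022 and 1974 and 875, 904 and 872 in brown ones. The falls were 1.91-fold and 2.22-fold (log2 −0.92, SE 0.0616, adjusted p = 3.94e-07, and −1.14, SE 0.0616, adjusted p = 1.15e-07), and the line difference was −0.22 (SE 0.0872, adjusted p = 0.0621). Stard4 thus fell in white cells, where most SREBP-driven synthesis genes rose or did not pass.

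The exporters rose steeply in white cells. Abca1, which passes cholesterol to lipid-poor apolipoprotein, read 346, 418 and 454 in white preadipocytes and 9074, 9105 and 9372 in white adipocytes, a 22.6-fold rise (log2 4.46, SE 0.0867, adjusted p = 8.05e-11). In brown cells it read 5084, 5234 and 5039 and 8144, 7800.0 and 7830.4, a 1.55-fold rise (log2 0.63, SE 0.0867, adjusted p = 0.000117). White preadipocytes alone were low. Brown minus white adipocytes came to −0.21 (SE 0.0867, adjusted p = 0.0572), a difference that passed under several alternatives, such as equal medians (−0.35, adjusted p = 0.0207) and the mean of probe sets (−0.46, adjusted p = 0.00235). Brown preadipocytes lay 12.6-fold above white preadipocytes (log2 3.61, SE 0.0867, adjusted p = 8.68e-10). The other Abca1 probe sets gave white rises of 2.45 and 2.58.

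Abcg1, which loads cholesterol onto mature HDL, was likewise lowest in white preadipocytes. It read 63.2, 57.6 and 33.8 in white preadipocytes, near the filter level of 32.9 to 41.2, and 2050.3, 2229 and 2363 in white adipocytes (log2 5.07, SE 0.150, adjusted p = 1.09e-09). In brown cells it read 623, 679.7 and 705 and 2893, 3061 and 2963, a 4.44-fold rise (log2 2.13, SE 0.150, adjusted p = 7.83e-07). Brown preadipocytes exceeded white ones by 3.37 (SE 0.150, adjusted p = 4.65e-08). Brown minus white adipocytes came to 0.42 (SE 0.150, adjusted p = 0.0320), a call that was lost with equal medians (adjusted p = 0.140) and without white adipocyte replicate 1 or 2 or any 1 brown adipocyte array (0.0585 to 0.0982). A second, dimmer Abcg1 probe set placed brown adipocytes above white ones by 1.55. It read 2.97 in white and 1.92 in brown cells, with a line difference of −1.06. In white preadipocytes its signals were 35.1, 1.44 and 3.15, so the floor was near there. Brown preadipocytes thus already expressed both exporters at day 0, with Abcg1 further below its level in brown adipocytes than Abca1. The part of the early fat cell state of these cells in the line difference was not tested.

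Nceh1, a hydrolase that frees cholesterol from its esters, fell in both lines. It read 624, 729 and 633 in white preadipocytes, 68.5, 65.3 and 28.7 in white adipocytes, 206, 304 and 229 in brown preadipocytes and 6.08, 13.3 and 8.82 in brown adipocytes. All 3 brown adipocyte arrays and 1 white adipocyte array lay below the filter level, so the floor was near. The white change was −3.33 (SE 0.237, adjusted p = 6.31e-07), the brown change −3.36 (SE 0.237, adjusted p = 7.74e-07), and the line difference was −0.04 (SE 0.335, adjusted p = 0.941). Lipe, the hormone-sensitive lipase, which also splits cholesterol esters, rose by 6.08 in white and 2.93 in brown cells (adjusted p = 2.25e-11 and 2.78e-09).

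**Figure D3:**
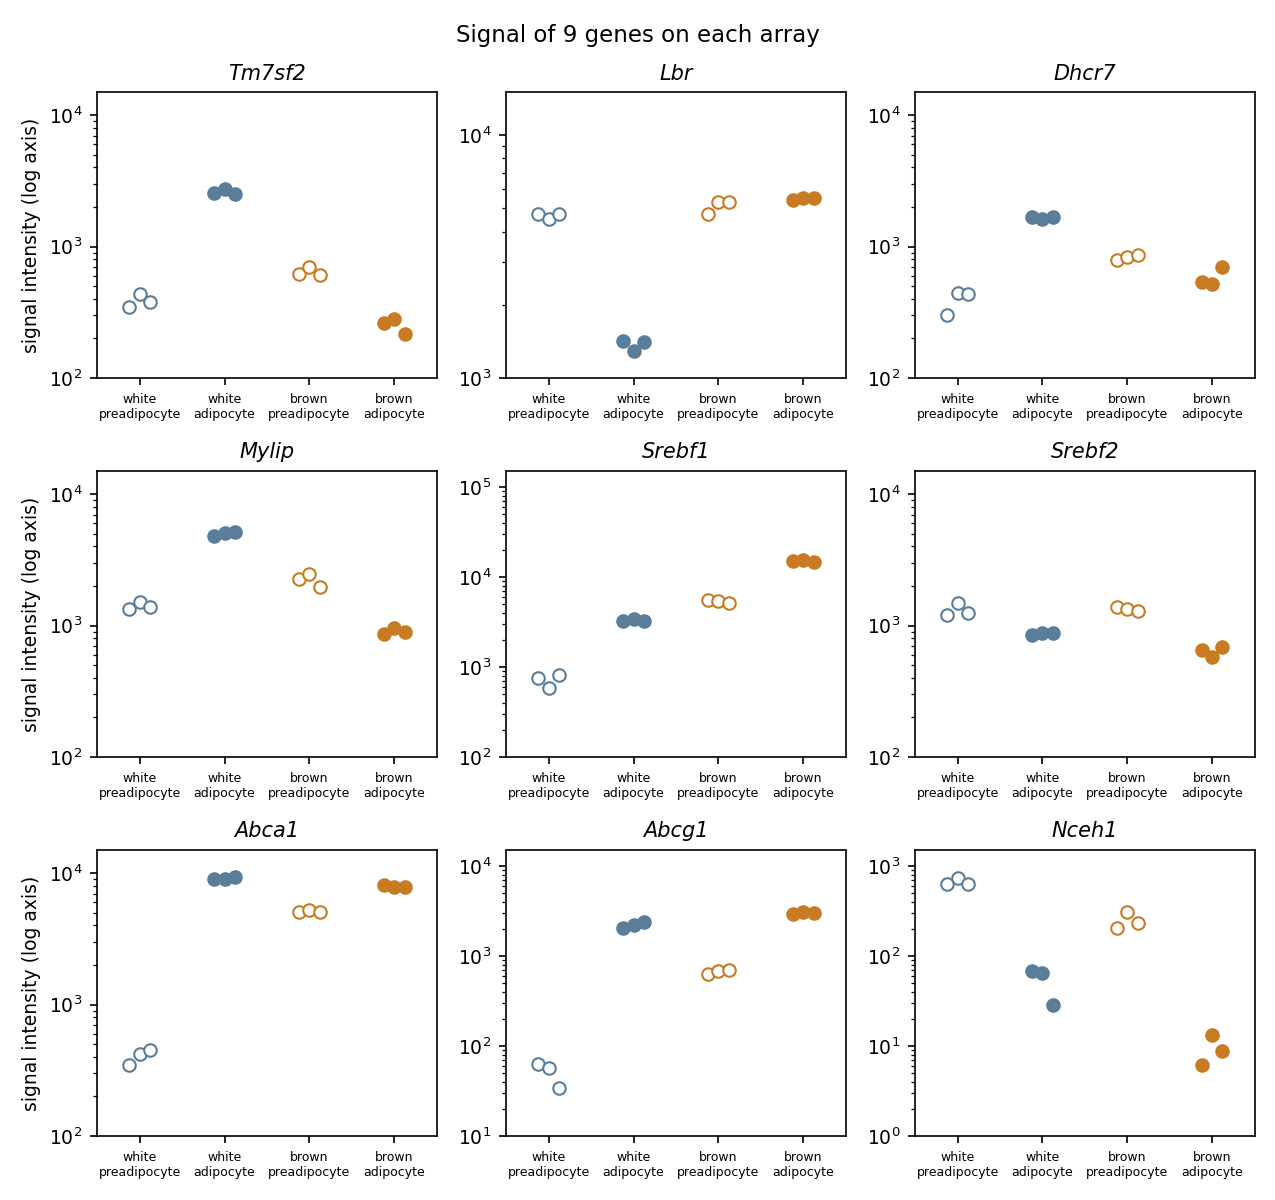
Signal of 9 genes on each array (log axis), 3 points per group, with white cells in blue, brown cells in orange, open symbols for preadipocytes and filled ones for adipocytes. Tm7sf2, Dhcr7 and Mylip are highest in white adipocytes and lower in brown adipocytes than in brown preadipocytes, Lbr is low in white adipocytes alone, and Abca1 and Abcg1 are low in white preadipocytes alone.

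The synthesis genes were set against Abca1, Abcg1 and Nceh1 on each array. The level of the 18 synthesis genes, each centred on its mean over 12 arrays, was 0.12 ± 0.0875 in white preadipocytes, 0.54 ± 0.0174 in white adipocytes, 0.10 ± 0.0502 in brown preadipocytes and −0.76 ± 0.0440 in brown adipocytes (log2, SD, n = 3). The mean of Abca1, Abcg1 and Nceh1 stood at −1.40 ± 0.108, 0.67 ± 0.136, 0.47 ± 0.115 and 0.27 ± 0.0728 in the same order. Its lower value in brown adipocytes than in brown preadipocytes goes with Nceh1 (−3.36), the ester hydrolase, while both exporters rose, so it is no measure of export alone. Synthesis minus this mean was 1.52 ± 0.0956, −0.13 ± 0.129, −0.36 ± 0.0770 and −1.03 ± 0.0392. The difference moved by −1.65 in white and −0.66 in brown cells. The line difference of 0.99 ranged from 0.48 with the mean of all probe sets to 1.40 with a pseudocount of 1. These levels are descriptions of lists chosen with results known and carry no test.

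**Figure D4:**
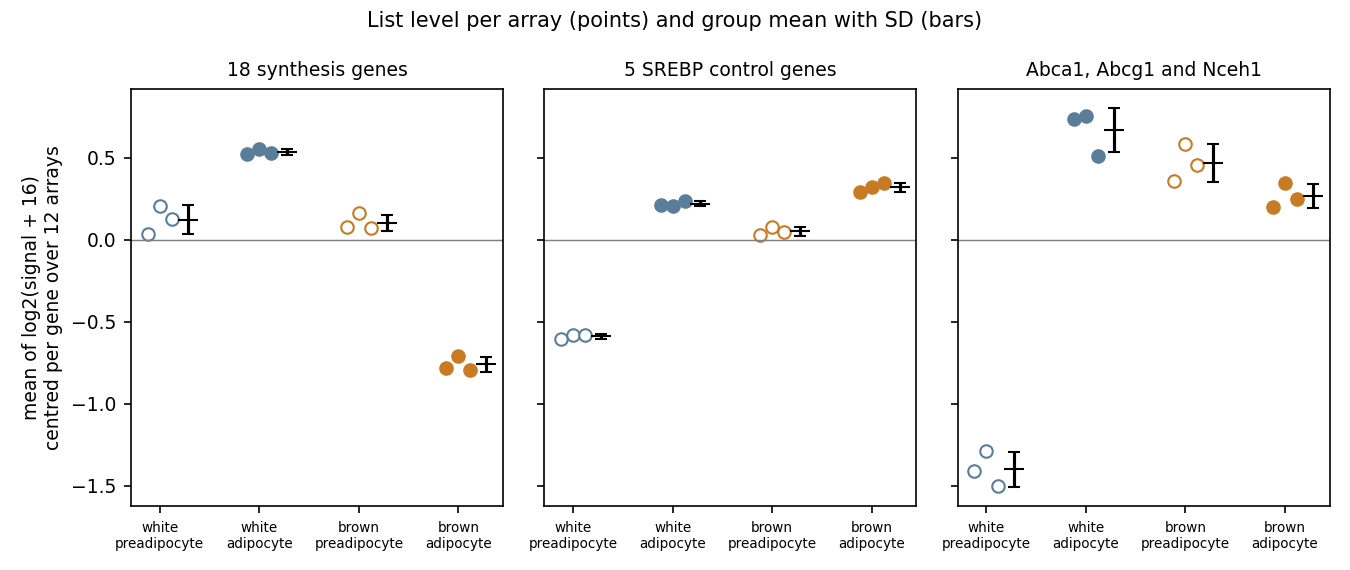
Mean log2(signal + 16) of the 18 synthesis genes, the 5 SREBP control genes and Abca1, Abcg1 and Nceh1, each gene centred over 12 arrays, per array (points) and as group mean with SD (bars, n = 3). Brown adipocytes are lowest for synthesis, at −0.76, while white preadipocytes are lowest for the control genes and, at −1.40, for the mean of Abca1, Abcg1 and Nceh1.

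At day 0 the lines already differed in parts of the pathway. Brown preadipocytes exceeded white ones in Srebf1 (7.51-fold), Cyp51 (2.17-fold), Dhcr7 (2.10-fold) and Tm7sf2 (1.65-fold), beside the exporters. They lay below white ones in Nceh1 (log2 −1.38), Nsdhl (−0.90), Msmo1 (−0.67) and Idi1 (−0.65), all past the threshold in limma (adjusted p = 0.000617, 4.58e-05, 1.19e-05 and 1.67e-05). Of the 18 synthesis genes, 3 were higher, 7 lower and 8 did not pass, against 31.3% higher and 23.8% lower over all genes. Their median was −0.05 against 0.07 over all genes. With equal medians 10 were lower (over all genes 4953, against 3274 as deposited). In adipocytes 17 of the 18 were lower in brown cells, against 29.5% of all genes, with a median of −1.33 against 0.00. Lbr alone was higher. Among synthesis genes the largest gaps between adipocytes after Tm7sf2 were in Lss (log2 −2.28, SE 0.119, adjusted p = 8.18e-08), Sc5d (−2.24, SE 0.0804, adjusted p = 5.98e-09) and Msmo1 (−2.01, SE 0.0654, adjusted p = 3.16e-09). These sizes depended on the probe set. With less specific probe sets left out, Lss read −0.09 (adjusted p = 0.425). The other Sc5d probe sets read −0.09 and −0.76, and a dim one of Msmo1 −0.89.

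Other genes of the same pathways, listed by name, put these values in their setting. The shares of all tested genes to set beside the counts of the 4 lists are 30.1% up and 31.2% down in white and 27.2% up and 31.6% down in brown cells. Of 20 tested genes of sterol and isoprenoid synthesis and its control, 11 rose and 5 fell in white cells and 6 rose and 5 fell in brown cells, with medians of 0.40 and 0.08, so the brown counts were near those shares. Acss2, which makes acetyl-CoA from acetate and is an SREBP target, rose by 3.15 (SE 0.170, adjusted p = 7.59e-08) in white and 1.43 (SE 0.170, adjusted p = 4.02e-05) in brown cells. Paqr3, which tethers Scap to the Golgi, rose by 1.30 (SE 0.237, adjusted p = 0.000716), and Syvn1, a ubiquitin ligase of the endoplasmic reticulum, by 0.88 (SE 0.0636, adjusted p = 7.24e-07) in white cells. In brown cells Erg28, a scaffold of the sterol demethylation complex, changed by −1.22 (SE 0.0742, adjusted p = 2.72e-07), with its partners Msmo1 and Nsdhl lower too. Erg28 was also lower in white adipocytes (1759, 1867 and 1700) than in white preadipocytes (2578, 3018 and 2811), where Msmo1 and Nsdhl did not pass. Aacs, which makes acetoacetyl-CoA from ketone bodies, rose by 1.14 in brown cells (SE 0.103, adjusted p = 4.86e-06). It read 1661, 1753 and 1489 in white preadipocytes and 2263, 2530 and 2540 in white adipocytes.

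Of 12 tested fatty acid genes known as Srebf1 targets, 11 rose and 1 fell in white cells and 8 rose and 2 fell in brown cells, with medians of 1.12 and 0.62. In brown cells more of these lipogenic genes rose than fell, where 15 of the 18 synthesis genes fell. Pnpla3, a lipase of lipid droplets, rose by 4.74 (SE 0.114, adjusted p = 2.77e-10) and 2.24 (SE 0.114, adjusted p = 7.22e-08) in white and brown cells. Gpam, which starts triglyceride assembly, rose by 2.44 (SE 0.0869, adjusted p = 3.82e-09) and 1.83 (SE 0.0869, adjusted p = 4.55e-08). Acacb, the acetyl-CoA carboxylase of the mitochondrial surface, rose by 4.45 (SE 0.164, adjusted p = 7.94e-09) in brown cells. It was also higher in white adipocytes (318, 299 and 233) than in white preadipocytes (82.4, 84.4 and 67.8). Elovl6, an elongase of saturated fatty acids, fell by 2.51 on the log2 scale in white cells (SE 0.105, adjusted p = 1.19e-08). It was also lower in brown adipocytes (1683, 1422 and 1518) than in brown preadipocytes (2438, 2543 and 2462).

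Of 18 tested uptake and carrier genes, 13 rose in white and 12 in brown cells, with 2 and 3 falling and medians of 0.77 and 0.49. Cd36, a scavenger receptor for oxidised LDL and fatty acids, read 19.0 ± 8.43 in white preadipocytes and 22183 ± 570.1 in white adipocytes, and 1132 ± 119 and 16209.7 ± 240.3 in brown ones (log2 9.34, SE 0.156, adjusted p = 3.41e-11, and 3.83, SE 0.156, adjusted p = 1.59e-08). Vldlr, the very low density lipoprotein receptor, which Mylip also targets, rose by 4.39 (SE 0.0823, adjusted p = 6.29e-11) and 1.75 (SE 0.0823, adjusted p = 4.25e-08). Gramd1b, which carries plasma membrane cholesterol to the endoplasmic reticulum, rose by 3.27 (SE 0.0894, adjusted p = 6.26e-10) in white cells. Cav1, the coat protein of caveolae, rose by 1.27 (SE 0.0712, adjusted p = 1.43e-07) in brown cells.

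LXR targets and oxysterol genes rose for 12 of 17 in white and 10 of 17 in brown cells, with 2 falling in each and medians of 1.17 and 0.57. Apoc1, an apolipoprotein gene in an LXR-responsive cluster, rose by 7.90 (SE 0.105, adjusted p = 8.43e-12) and 4.51 (SE 0.105, adjusted p = 4.56e-10) in white and brown cells. Ces1f, a carboxylesterase, rose by 8.04 (SE 0.227, adjusted p = 8.00e-10) and 4.19 (SE 0.227, adjusted p = 1.13e-07). Cyp27a1, a sterol hydroxylase that makes an oxysterol, rose by 2.98 (SE 0.432, adjusted p = 0.000166) in brown cells, to 644 ± 165.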

How the data were processed

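Per the submitters' processing notes, the authors used Affymetrix Expression Console, of which the algorithm and version are not stated in the sources used here, and deposited 1 linear intensity for each probe set on each array. Every array had a 2% trimmed mean of 500.003 to 500.004, so arrays had been scaled to a common level, which hides a change in total RNA per cell. No detection calls were used here, and the number of arrays limits precision.

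Of 45101 probe sets, 34945 carried 1 gene symbol, 932 several and 9211 were not listed. The probe set with the highest mean stood for a gene. Genes above the array's 40th percentile (32.9 to 41.2) on at least 3 of 12 arrays were tested, 13752 of 18193. Values were taken as log2(signal + 16), a scale that understates changes of dim genes. Signals are means ± SD, n = 3, and folds are ratios of mean signal. R 4.3.3 with limma 3.58.1 fitted the differences (lmFit on 4 group means, eBayes; 8 residual and 1.81 prior degrees of freedom), with two-sided p-values adjusted by Benjamini-Hochberg over all genes tested; an adjusted p under 0.05 was called. White differentiation was also simulated over 13752 genes. Of genes changed by 2, 1 and 0.5 on the log2 scale, 63 of 67, 54 of 67 and 25 of 66 were recovered. Of 13552 unchanged genes, 13 were called. In the data 4141 genes rose and 4286 fell in white cells, far more than were changed in the simulation. These rates therefore do not describe the test on the data.

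All 30 genes with a probe set are named, and from each of the 4 other pathway lists the 3 with the largest change in each line. The members and lists were chosen with earlier results of these data known. Lists of markers covered fat cells, brown fat cells, preadipocytes, macrophages, endothelial cells, proliferation and hepatocytes. Same-numbered arrays did not deviate together (correlations of −0.0292 to 0.0668 over 18 pairs), so numbers do not pair samples. Tried as alternatives were scaling to the 18 hybridization control probe sets, equal medians, quantile normalization, pseudocounts of 1 and 64, no filter or a 60th percentile filter, the mean of all probe sets, less specific probe sets left out, robust moderation or an intensity trend, only the arrays compared, a replicate block, an adjusted p under 0.01, and each array left out in turn. Tables and plots were made in Python 3.11.15 (matplotlib 3.10.9, pandas 2.3.3, numpy 2.4.6).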

Additional observations from a re-analysis of the deposited data

Results flagged for a closer look

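For 24 of the 30 genes the change with differentiation differed between the lines in limma's test of that difference, with adjusted p of 7.84e-09 to 0.017. Over all tested genes 23.6% had a positive and 27.5% a negative difference that passed. Values are the brown change minus the white change on the scale of log2(signal + 16). In the mevalonate arm these were Mvd (−1.70), Fdps (−1.57), Mvk (−1.24), Hmgcs1 (−1.09) and Pmvk (−1.06). In the squalene and sterol arm they were Tm7sf2 (−3.99), Dhcr7 (−2.56), Lss (−1.94), Cyp51 (−1.88), Sc5d (−1.84), Sqle (−1.37), Msmo1 (−1.35), Hsd17b7 (−1.32), Nsdhl (−0.87), Ebp (−0.49) and Fdft1 (−0.46). Among the control genes they were Insig1 (−1.32), Srebf1 (−0.71) and Srebf2 (−0.47), and in transport Npc2 (−0.80). The genes known to respond to LXR had Abca1 (−3.83), Mylip (−3.12) and Abcg1 (−2.95). For Abca1 and Abcg1 both lines rose, so a negative value there is a smaller rise in brown cells, which started from a higher level at day 0. Lbr was the exception in sign, at 1.85. Other probe sets gave line differences of 0.10 and −0.47 for Sc5d, −1.05 and −1.23 for Cyp51 and −1.06 for Abcg1. Calls lost under alternatives were Fdft1 with equal medians (adjusted p = 0.131) and with the mean of probe sets (0.872), Srebf2 with these (0.0735 and 0.339) and with scaling to the hybridization controls (0.0538), and Msmo1 (−0.38, 0.361) and Lss (0.10, 0.543) with less specific probe sets left out. The lines also differed in induction mix, medium and day, which cannot be told apart from the line itself.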

How the results depend on the processing

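Counts of the 30 genes called kept within 1.5 times of their value under nearly all alternatives. The exceptions were the genes above white in the line difference (2 with a pseudocount of 64, against 1), the genes higher in brown adipocytes (3 with equal medians, against 5) and the genes lower in brown preadipocytes (14 with equal medians, against 9). Leaving out each array in turn gave 16 to 18 genes up and 6 to 7 down in white cells, and 8 up and 18 to 21 down in brown cells. The median change of the synthesis genes in white cells was 0.20 with quantile normalization, 0.19 with equal medians, 0.035 with scaling to the hybridization controls, 0.11 with the mean of all probe sets and 0.076 with less specific probe sets left out. In brown cells it was −1.18, −0.75 and −0.81 with the last 3 of these. The line difference was −1.19 with equal medians, −0.90 with the mean of probe sets and −1.15 with less specific ones left out. Between adipocytes the median was −1.43, −1.46, −1.18, −1.06 and −1.11 under the 5 in the same order, and between preadipocytes −0.33 with equal medians and 0.034, a reversal, with the hybridization controls. Synthesis minus the mean of Abca1, Abcg1 and Nceh1 moved in brown cells to −0.27 and −1.02 with pseudocounts of 1 and 64 and −0.87 with the mean of probe sets. In white cells it moved to −1.34 with that mean and −1.78 with less specific probe sets left out, and in the line difference to 1.40, 0.57, 0.85, 0.48 and 1.18 with pseudocounts of 1 and 64, quantile normalization, the mean and less specific ones left out. The single genes that reversed were Lss with less specific probe sets left out (−0.32 in white cells, adjusted p = 0.00761; 0.10 in the line difference) and Srebf2 with the mean of probe sets (0.11 between adipocytes). Apart from the choice of probe set, the cause was not tested. All genes shifted too: with the hybridization controls their white and brown median changes became −0.23 and −0.22, and with equal medians their median between preadipocytes became −0.18. The replicate block left 20 genes lower in brown cells (against 21) and 4 higher in brown adipocytes (against 5). Near the filter level, as for Nceh1 in brown adipocytes, signal over background limits the size of a change.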
